A study of Homo sapiens with 8 samples.

Results

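The CHD4 core regions are stretches of the genome where a CHD4 peak was listed in each of 6 libraries of SCC9, an established squamous carcinoma line of the tongue. They were found by joining overlapping peaks (1 bp or more) of the 6 lists into regions and keeping those with a peak in every library. This gave 518 of 18808 regions, or 2.75%, covering 497 kb of the hg19 genome. The members were chosen by the presence of a listed peak in each library, so their being shared is not a finding. All 518 were used.

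The libraries came from chromatin immunoprecipitation with an antibody to CHD4 and sequencing of single 50 bp reads. The lacZ group (3 libraries, labelled -DOC1) lacked DOC1 and the DOC1 group (3 libraries, labelled +DOC1) had it. All came from this 1 line, grown in the same medium. Nothing in the labels says that the 3 libraries of a group came from separate cultures, so their spread may be technical. The study's design text asks how binding changes when DOC1 is lost. The 2 IgG samples were not analysed here.

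CHD4 is the ATP-driven motor of NuRD, a complex that slides nucleosomes and removes acetyl groups from histones through its deacetylases. DOC1, also called CDK2AP1, is a small subunit of NuRD. NuRD is found at many promoters and enhancers, active ones included, and is known for damping their output. SWI/SNF is another nucleosome remodelling complex, generally linked to opening of chromatin.

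Genes are named here as landmarks only. Their hg19 positions were written from general knowledge after the core regions had been seen, and only those that passed a check against a gene table of another build were kept. How many of the 518 regions lie at genes was therefore not counted, and a region named by position alone may also lie in a gene.

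The promoters of 6 genes whose start lies in or within 1 kb of a core region are printed first. At PRMT1 and EED the start lies outside the region. Whether the printed bases overlap the regions was not checked. ZNF335 (a zinc finger protein of histone methyltransferase complexes) and PRMT1 (the main arginine methyltransferase) were among the core regions with the highest fold in every library. CDK12 (a kinase of RNA polymerase II) and SMARCD2 (a SWI/SNF subunit) ranked higher in all DOC1 libraries, and ADRM1 (a ubiquitin receptor of the proteasome) ranked higher by fold in all lacZ libraries. EED (a Polycomb subunit) ranked higher in opposite groups by the 2 measures used below. Each sequence is the 250 bases before the gene start, 5′ to 3′ on the gene's strand, from RefSeq on GRCh38.p14. Capitals mark matches to the motifs named after the sequences, and a sequence without capitals holds none.
ZNF335: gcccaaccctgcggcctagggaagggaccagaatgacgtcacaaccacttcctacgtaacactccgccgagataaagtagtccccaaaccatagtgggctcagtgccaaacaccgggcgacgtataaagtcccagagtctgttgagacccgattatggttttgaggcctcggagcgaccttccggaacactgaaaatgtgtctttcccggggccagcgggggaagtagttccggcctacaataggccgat
PRMT1: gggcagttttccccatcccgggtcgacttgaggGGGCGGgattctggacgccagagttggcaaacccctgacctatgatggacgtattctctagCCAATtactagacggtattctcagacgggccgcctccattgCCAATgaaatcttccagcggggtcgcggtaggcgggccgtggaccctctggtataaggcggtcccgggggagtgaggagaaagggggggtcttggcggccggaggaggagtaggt
CDK12: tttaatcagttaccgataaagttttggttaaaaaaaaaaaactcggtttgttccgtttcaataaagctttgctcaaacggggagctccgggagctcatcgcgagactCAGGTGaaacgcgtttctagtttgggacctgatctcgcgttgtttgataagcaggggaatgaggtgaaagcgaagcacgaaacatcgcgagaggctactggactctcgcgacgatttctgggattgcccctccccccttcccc
SMARCD2: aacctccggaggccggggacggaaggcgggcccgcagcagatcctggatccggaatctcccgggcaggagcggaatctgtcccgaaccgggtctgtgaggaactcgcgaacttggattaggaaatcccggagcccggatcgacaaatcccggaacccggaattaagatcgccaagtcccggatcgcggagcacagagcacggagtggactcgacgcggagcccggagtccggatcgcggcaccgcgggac
ADRM1: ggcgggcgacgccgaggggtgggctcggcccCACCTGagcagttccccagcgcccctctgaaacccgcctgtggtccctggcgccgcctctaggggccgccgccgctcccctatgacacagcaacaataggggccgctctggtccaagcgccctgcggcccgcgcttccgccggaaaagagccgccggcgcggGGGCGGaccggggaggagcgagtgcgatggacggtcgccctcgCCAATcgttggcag
EED: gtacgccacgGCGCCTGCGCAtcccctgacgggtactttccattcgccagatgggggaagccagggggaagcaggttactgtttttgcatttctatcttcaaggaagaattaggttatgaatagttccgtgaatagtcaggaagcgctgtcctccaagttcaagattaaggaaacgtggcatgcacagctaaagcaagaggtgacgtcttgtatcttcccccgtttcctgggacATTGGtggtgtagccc

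In that build these promoters are ZNF335 chr20:45972204-45972453 on the minus strand, PRMT1 chr19:49677021-49677270 on the plus strand, CDK12 chr17:39461236-39461485 on the plus strand, SMARCD2 chr17:63842686-63842935 on the minus strand, ADRM1 chr20:62302646-62302895 on the plus strand and EED chr11:86244503-86244752 on the plus strand. All other coordinates given here are hg19. The motifs searched on both strands were TGANTCA (AP-1), CCGGAAGT (ETS), GGGCGG (the GC box of SP and KLF factors), ATTGG (the CCAAT box), CACGTG and CACCTG (E-boxes) and the consensus of NRF1. Of 75 named genes with a start at a core region, 60 had a promoter in the RefSeq table. The GC box was in 36 of these 60 promoters (60.0%) and in 42.3% of the 27305 promoters of the table. The NRF1 consensus was in 6 (10.0%, against 2.48%) and the ETS motif in 5 (8.33%, against 3.64%). The CCAAT box was in 21 (35.0%, against 33.0%), CACGTG in 5 (8.33%, against 6.49%), CACCTG in 8 (13.3%, against 17.5%) and the AP-1 motif in 2 (3.33%, against 6.60%). The 60 promoters held a median of 22 CpG dinucleotides, against 11 in the table, and were 65.8% G or C, against 58.0%. The genes are well known ones whose positions were written after the core regions had been seen. The table's promoters were not matched to them. These shares therefore describe the named genes and not the core, and they were not tested.

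The core regions were between 385 and 3399 bp long, with a median of 826.5 bp. In 391 of them each library had 1 peak, and in 127 at least 1 library had more. Core peaks were 7.77%, 19.7% and 12.3% of the lists of lacZ 1, lacZ 2 and lacZ 3 and 7.48%, 15.9% and 5.05% of those of DOC1 1, DOC1 2 and DOC1 3. The shorter the list, the larger this share, and the lists hold 2812 to 11032 peaks.

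Strength was described by the fold enrichment that the authors' peak caller gave each peak, turned into a percentile within the library's own list, since folds of different lists cannot be set against each other. The median percentile of the core regions was 88.3, 72.2 and 83.1 in lacZ 1, lacZ 2 and lacZ 3. It was 83.1, 55.8 and 93.0 in DOC1 1, DOC1 2 and DOC1 3. Core regions thus lay in the upper part of most lists, but near the middle of that of DOC1 2. DOC1 2 was also the library in which 228 of the 518 regions (44.0%) had their lowest percentile. The lowest medians belonged to the shortest lists, DOC1 2 (3448 peaks) and lacZ 2 (2812), and the highest to the longest, DOC1 3 (11032). How far list length sets these medians and this count was not tested. Only 45 regions were at percentile 90 or above in all 6 lists, 173 were in the upper part (percentile 50 or more) of all 6, and 22 were below 50 in all 6. The regions just outside the rule, 884 regions with a peak in 5 of the 6 libraries, had median percentiles of 76.3, 53.0 and 62.5 in the lacZ lists and 62.2, 45.8 and 72.0 in the DOC1 lists. Of these 884 regions, 678 lacked a peak in DOC1 2 and 129 lacked one in lacZ 2. Each median covers only the regions with a peak in that library, so these medians rest on different regions.

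The numbers of reads at the summit and in the local background were solved from the fold and p-value of each peak. Summit reads are whole counts, while the background is in reads after scaling by 1 factor per library, given below. The 2 can therefore not be divided to give the fold, and backgrounds of different libraries are not on 1 scale. The median background of the core was 3.00, 2.37 and 2.17 in lacZ 1 to 3 and 2.00, 2.84 and 3.01 in DOC1 1 to 3. Core summits held a median of 68.5, 39 and 35 reads in lacZ 1, lacZ 2 and lacZ 3. They held 22, 20 and 57 in DOC1 1, DOC1 2 and DOC1 3. The lowest core summit held 10 reads, in DOC1 1, so single regions are known with wide counting error. These reads may not all be independent molecules, since the libraries were amplified for 18 PCR cycles. Duplicate reads were not counted here.

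**Figure D1:**
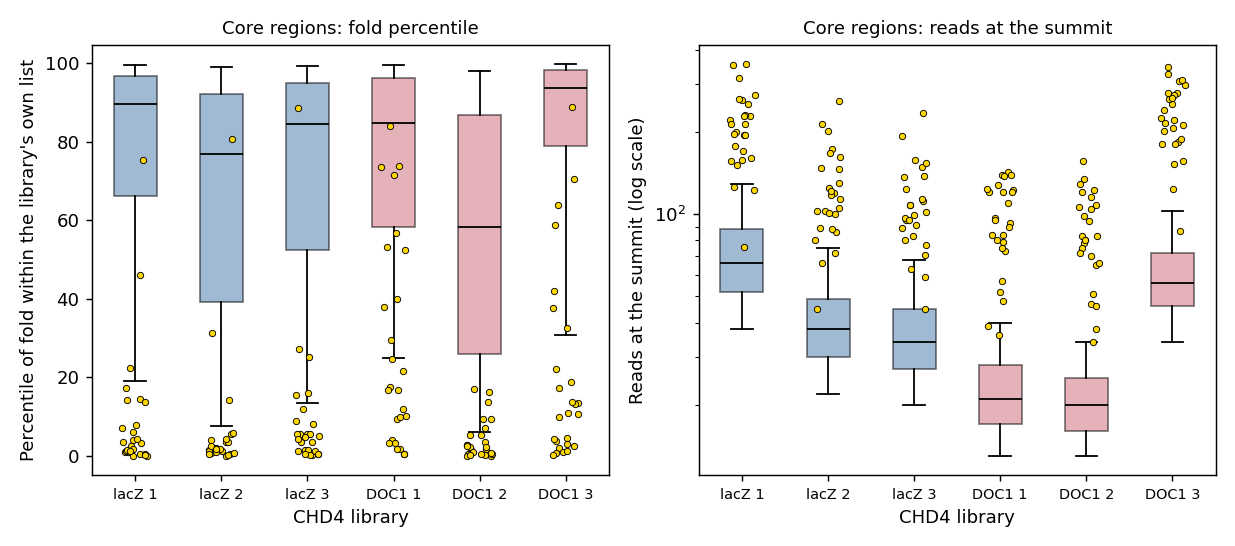
Percentile of fold within each library's own list (left) and reads at the summit (right, log scale) for the core regions in the 6 CHD4 libraries. Boxes show the quartiles and median and whiskers the 5th to 95th percentile of 492 regions, and yellow points the 26 regions of a segment of chromosome 9, which sit mostly low by fold and high by reads.

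At the level of whole libraries the 2 groups overlapped. The mean of the median percentiles was 81.2 ± 8.24 (SD, n = 3) in lacZ and 77.3 ± 19.3 (SD, n = 3) in DOC1, a difference of -3.86 points (two-sided exact permutation test, p = 0.9). Core peaks had median widths of 643.5, 419 and 453.5 bp in lacZ 1 to 3 and 444, 342 and 678 bp in DOC1 1 to 3. Their means differed by -17.3 bp, DOC1 minus lacZ (exact permutation test, p = 0.9). With 3 libraries against 3 the smallest p that this test allows is 0.1, so no difference could have passed 0.05. The difference in percentile was 2.05 points without DOC1 2, and that in width was 53.2 bp without lacZ 1, 31.3 bp without DOC1 2 and 4.17 bp without DOC1 1.

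The region with the best lowest percentile was chr20:44599751-44601851, which holds the start of ZNF335. Its fold was 17.6, 16.9 and 17.1 in lacZ 1 to 3 and 14, 11.3 and 19.4 in DOC1 1 to 3, at or above percentile 99.4 in every list. Its summit held 154, 101 and 82 reads in the lacZ libraries and 39, 41 and 140 in the DOC1 libraries. Its background, after scaling, was 1.85 to 3.23 reads. It stood near the top of the core in each library, and the groups overlapped in its rank.

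The region within 1 kb of the start of PRMT1, chr19:50178756-50180094, had folds of 19.2, 14.9 and 13.4 in lacZ and 14.6, 10.9 and 13.8 in DOC1, at or above percentile 97.7. At chr16:23568086-23569117 lie the starts of both EARS2 (a mitochondrial enzyme that loads tRNA with glutamate) and UBFD1 (a ubiquitin family protein). Its folds were 14.9, 12 and 12.5 in lacZ and 12, 9.34 and 15.1 in DOC1. The start of KXD1, a protein of lysosome positioning, lies in chr19:18667570-18668876, with folds of 14, 15.9 and 12.2 in lacZ and 11.6, 8.25 and 9.83 in DOC1. Near the start of RNF24, a RING finger protein, chr20:3996320-3996780 had folds of 14.9, 11.9 and 14.2 in lacZ and 11.1, 8 and 10.1 in DOC1. All of these held percentiles of 96.4 or more in every list. None was apart between the groups by rank of fold. By summit reads, those at KXD1 and RNF24 ranked higher in every lacZ than in every DOC1 library.

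Of the other 7 among the 12 regions with the best lowest percentile, 1 was named in a gene body and 1 within 10 kb of a gene. The first is chr4:100481954-100482619 in TRMT10A, a tRNA methyltransferase, with folds of 28.5, 32.3 and 29.7 in lacZ and 15.5, 9.41 and 11.7 in DOC1. The second is chr10:73124303-73125053 near SLC29A3, a nucleoside transporter, with folds of 18.2, 16.3 and 13.6 in lacZ and 13.4, 7.85 and 12.4 in DOC1. The first ranked higher in every lacZ than in every DOC1 library, by fold and by summit reads, and the second did so by neither. The other 5 were chr8:134194369-134195141, chr16:47071860-47072595, chr14:35843191-35843983, chr1:1617469-1618095 and chr19:36623209-36624020, with percentiles of 96.5 or more in every list. The region on chromosome 19 also ranked higher in every lacZ library by fold and by summit reads. That on chromosome 14 did so by fold only and that on chromosome 8 by summit reads only. The regions on chromosomes 16 and 1 did so by neither.

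To compare the order of regions between libraries, the 518 regions were ranked within each library, from 1 for the lowest to 518 for the highest. Ranks by fold correlated between lacZ libraries with Spearman's rho of 0.82 to 0.83, between DOC1 libraries with 0.53 to 0.68, and between a lacZ and a DOC1 library with 0.34 to 0.51. Ranks by summit reads gave 0.86 to 0.88, 0.71 to 0.78 and 0.65 to 0.81. The local background gave 0.88 to 0.90 within lacZ, 0.88 to 0.90 within DOC1 and 0.54 to 0.60 between them. It divides the fold and is not subtracted from the summit reads, so neither measure is free of it. For the background, the lowest value within a group stood further above the highest value between groups than it did for the fold. These are descriptions over 518 regions, and the pairs share libraries. Which control the peak caller used for each library is not stated in the labels.

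**Figure D2:**
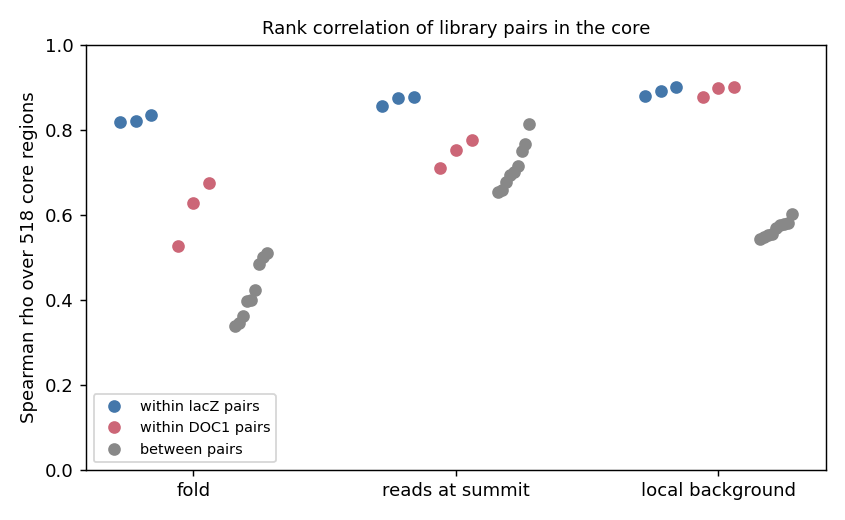
Spearman's rho over the 518 core regions for each of the 15 pairs of libraries, by fold, by reads at the summit and by local background. Pairs between groups lie lowest for fold (0.34 to 0.51) and for background (0.54 to 0.60), and overlap the DOC1 pairs for reads (0.65 to 0.81).

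By fold, 89 core regions (17.2%) ranked higher in every lacZ library than in every DOC1 library, and 92 (17.8%) the other way round. By summit reads these were 74 (14.3%) and 80 (15.4%). The 2 measures often chose different regions. Only 29 regions ranked higher in lacZ by both, which is 32.6% of the 89 and 39.2% of the 74. For DOC1 there were 28, which is 30.4% of the 92 and 35.0% of the 80. In 14 regions the 2 measures put opposite groups first, 4 with lacZ first by fold and 10 with DOC1 first by fold. The order by fold is therefore given with summit reads and background at the main regions below. Why the 2 measures differ was not tested. Without DOC1 2, 1196 regions were shared by the other 5 libraries, and 280 and 276 of them were apart by fold. Without lacZ 2 it was 145 and 134 of 647. No single region can pass an exact test with 3 libraries in each group.

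**Figure D3:**
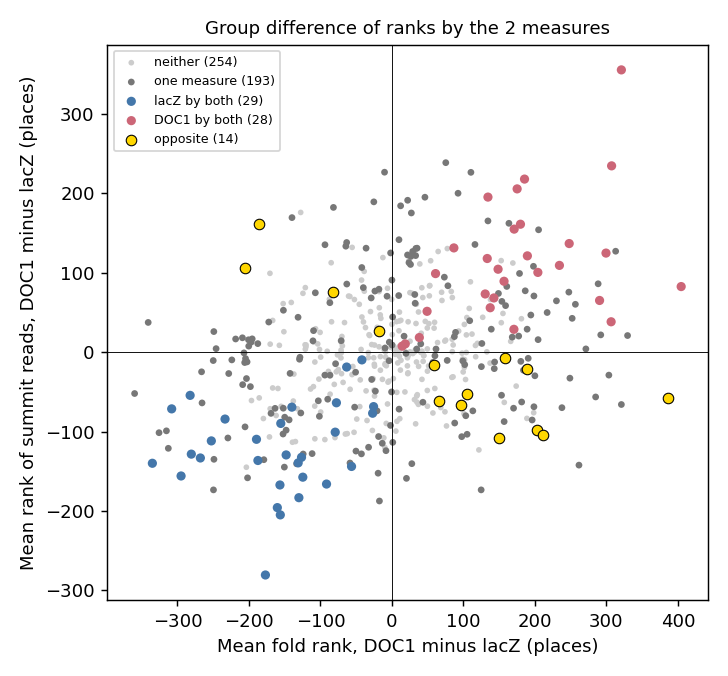
Difference of mean rank, DOC1 minus lacZ, by fold (horizontal) and by summit reads (vertical), 1 point per core region. Blue (29) and red (28) points rank higher in every lacZ or every DOC1 library by both measures, dark grey points (193) by 1 measure, and the 14 yellow points have opposite groups first.

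The largest difference in favour of DOC1 was at chr17:37617319-37617926, which holds the start of CDK12. Its fold was 5.45, 4.24 and 6.84 in lacZ and 17.3, 13.3 and 13.6 in DOC1, and its rank by fold was 92, 50 and 173 in lacZ and 514, 518 and 497 in DOC1. By summit reads it ranked 413, 366.5 and 440 in lacZ and 489, 491 and 487 in DOC1, so the groups were apart by both measures. The gap was wider by fold, and its background was 8, 7 and 6 reads in lacZ and 2.47, 3.60 and 5 in DOC1.

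The region at the start of SMARCD2, chr17:61919986-61921076, had the same order. It ranked 131, 64 and 129 by fold in lacZ and 407.5, 380 and 408 in DOC1. By reads it ranked 390, 337 and 415.5 in lacZ and 432.5, 447.5 and 457.5 in DOC1. Its background was 6.46, 6.16 and 5.88 reads in lacZ and 2.47, 3.83 and 4.42 in DOC1.

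Other regions at gene starts that ranked higher in DOC1 by both measures included those of CLPB (a mitochondrial chaperone), AARS2 (a mitochondrial enzyme that loads tRNA with alanine), PAXBP1 and, within 1 kb of its start, BANP. They were picked after their values were seen. At CLPB, chr11:72145035-72145788 ranked 151, 106.5 and 134.5 by fold in lacZ and 427, 445 and 223 in DOC1, with a background of 5, 5 and 4 reads in lacZ and 2.11, 2.93 and 6 in DOC1. At PAXBP1, chr21:34143975-34144750 ranked 230.5, 295 and 266 by fold in lacZ and 398, 450 and 483 in DOC1, with a background of 2.69, 2.61 and 2.49 reads in lacZ and 1.85, 2.70 and 3.12 in DOC1.

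At chr2:101730204-101730694, in the body of TBC1D8 (a protein with a Rab GTPase-activating domain), the measures disagreed. Its fold was 4.57, 4.21 and 4.98 in lacZ and 9.27, 8.59 and 10.7 in DOC1, while by reads it ranked 390, 402 and 397.5 in lacZ and 301.5, 373 and 341 in DOC1. The background there was 9, 8 and 7 reads in lacZ and 1.70, 2.03 and 2.60 in DOC1. Near the start of EED, chr11:85955939-85956506 ranked 57, 40 and 51.5 by fold in lacZ and 225, 262 and 270 in DOC1. By reads it ranked 263.5, 275.5 and 247 in lacZ and 235.5, 120.5 and 135.5 in DOC1, with a background of 6, 6 and 5 reads in lacZ and 2.11, 2.14 and 2.47 in DOC1.

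The 6 largest differences in favour of DOC1 also included chr1:33899226-33899912, within 10 kb of the Polycomb gene PHC2, chr3:13548967-13550075 and chr8:67035583-67037014. In these 3 the ranks by reads overlapped between the groups. In these 3 the background, in the units of each library, was higher in every lacZ than in every DOC1 library. This did not hold for all of the 6.

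In favour of lacZ, the largest difference by fold was at chr8:101155883-101156580. Its fold was 13.9, 14.9 and 15.5 in lacZ and 4.40, 4.04 and 7.72 in DOC1. By reads the groups overlapped, with ranks of 401.5, 451 and 437 in lacZ and 261.5, 396 and 475.5 in DOC1. Its background was 2.39, 2.13 and 2.03 reads in lacZ and 4.22, 5.68 and 7 in DOC1. The region at the start of ADRM1, chr20:60876638-60877308, ranked 445, 477 and 482 by fold in lacZ and 75, 135.5 and 247 in DOC1, and 355, 416 and 421 by reads in lacZ and 301.5, 373 and 220 in DOC1. Its background was 2.15, 1.90 and 1.81 reads in lacZ and 3.52, 4.73 and 3.12 in DOC1. In the body of LRP5, a Wnt co-receptor, chr11:68121596-68122631 had folds of 19.2, 14.5 and 19.5 in lacZ and 6.64, 3.75 and 7.85 in DOC1, and overlapping ranks by reads. Its background was 2.15, 1.66 and 1.58 reads in lacZ and 2.31, 5.68 and 5 in DOC1.

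Of the 6 largest differences in favour of lacZ, chr10:104615578-104616435 alone was also apart by reads. It ranked 517, 507 and 515 by fold in lacZ and 160.5, 266 and 107 in DOC1, and 457.5, 396.5 and 452 by reads in lacZ and 235.5, 373 and 277.5 in DOC1. Its background was 1.19, 1.04 and 1 reads in lacZ and 2.47, 3.78 and 5 in DOC1. The other two were chr20:43201337-43202552 and chr20:35492331-35493000. Of regions at named gene starts, those of ARNT (the partner of the hypoxia and dioxin receptors), SMU1 (a splicing factor) and, within 1 kb, SLC29A3 ranked higher in lacZ by both measures. They too were picked after their values were seen. At ARNT, chr1:150849123-150849789 ranked 392, 375 and 472 by fold in lacZ and 125, 223 and 133 in DOC1, and 208.5, 191.5 and 345 by reads in lacZ and 125.5, 161 and 123 in DOC1. Its background was 1.72, 1.49 and 1.42 reads in lacZ and 2.00, 2.48 and 3.38 in DOC1.

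Summits of the 6 libraries mostly fell close together. The outermost summits of a region were a median of 149 bp apart (quartiles 96.5 and 273.5 bp). All 6 summits lay within 50 bp in 30 regions, within 100 bp in 138 (26.6%) and within 200 bp in 320 (61.8%). In 70 regions they were over 500 bp apart, and 54 of these held more than 1 peak of some library. The median was 132 bp in regions with 1 peak per library and 418 bp in the rest. Without DOC1 2, 399 of 1196 regions had their 5 summits within 100 bp.

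**Figure D4:**
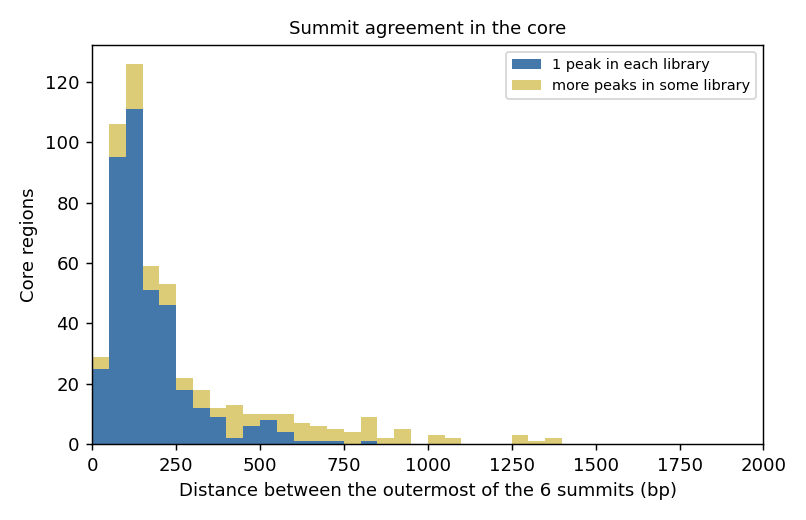
Number of core regions by the distance between the outermost of their 6 summits, in bins of 50 bp, split by whether each library had 1 peak. Most lie under 200 bp (320 regions), regions with more peaks make up most of the tail, and 1 region beyond 2000 bp is not drawn.

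The summits of 2 libraries were closer in the core than in regions shared by 2 to 5 libraries in 15 of 15 pairs. The median distance in the core was 38 to 47 bp for lacZ pairs, 58 to 71 bp for DOC1 pairs and 44 to 61 bp for pairs of both groups. Pairs share libraries, so this is a description with no test. Core regions were chosen by a listed peak in every library. Their median percentile of fold was higher in every list than that of regions in 5 libraries. How far this choice sets the shorter distances was not tested. A summit lay a median of 34.5, 34 and 38.5 bp from the median of the other summits in lacZ 1 to 3 and 49, 49 and 36.5 bp in DOC1 1 to 3. The difference of the means, 35.7 ± 2.47 bp (SD, n = 3) in lacZ against 44.8 ± 7.22 bp (SD, n = 3) in DOC1, was 9.17 bp (exact permutation test, p = 0.2, and 0.6 after Benjamini-Hochberg adjustment over the 3 measures per library). The libraries with the largest distances, DOC1 1 and DOC1 2, also had the fewest reads at core summits. The part of depth in the distance was not tested.

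The tightest region was chr9:36102333-36103357 in the body of RECK, an inhibitor of matrix metalloproteinases, where the 6 summits spanned 8 bp. It held the most reads of any core summit in all 3 lacZ libraries, with 354, 259 and 234, and 120, 108 and 277 in DOC1. This region lies in the chromosome 9 segment described below, and its background was 8.72 times the core median. Its percentile of fold was 75.4, 80.8 and 88.6 in lacZ and 73.5, 16.2 and 58.7 in DOC1. In LMO7, a gene for a protein of cell junctions, the summits of chr13:76290882-76291698 spanned 18 bp, with 253, 185 and 166 reads in lacZ and 83, 84 and 193 in DOC1. The background there was 3.39 times the core median. The next 3, chr8:145992196-145993305, chr5:148344765-148345418 and chr7:47715165-47716324, spanned 19, 20 and 22 bp. All of these but the region on chromosome 5 held more summit reads than the core median in every library. That region was below it in lacZ 2 (37 reads, against 39) and lacZ 3 (28, against 35).

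The widest spans were 2531 bp at chr9:35488999-35492397, where the summit of DOC1 1 lay 2323 bp from the median, 1356 bp at chr1:145395089-145397019 and 1352 bp at chr11:59317908-59319748. The last pair held 13 and 12 peaks each, and their summits fell into separate places. The 5 longest regions were that on chromosome 9 (3399 bp), chr9:35688544-35691477 (2934 bp, over the start of TPM2, a tropomyosin), chr20:55361832-55364722 (2891 bp), chr9:35906688-35909546 (2859 bp) and chr12:125230326-125232848 (2523 bp). The 3 on chromosome 9 lie in 1 segment, described below.

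Core regions were spread over all chromosomes but Y. Chromosome 17 held 61 (11.8% of the core, against 7.15% of all regions), chromosomes 1 and 20 held 46 each, chromosome 6 held 42, chromosome 19 held 39 and chromosome 9 held 38. On chromosome 20, 6.06% of all regions were core, against 2.75% in the genome, and on chromosome 2, 1.65%. These shares were not tested.

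**Figure D5:**
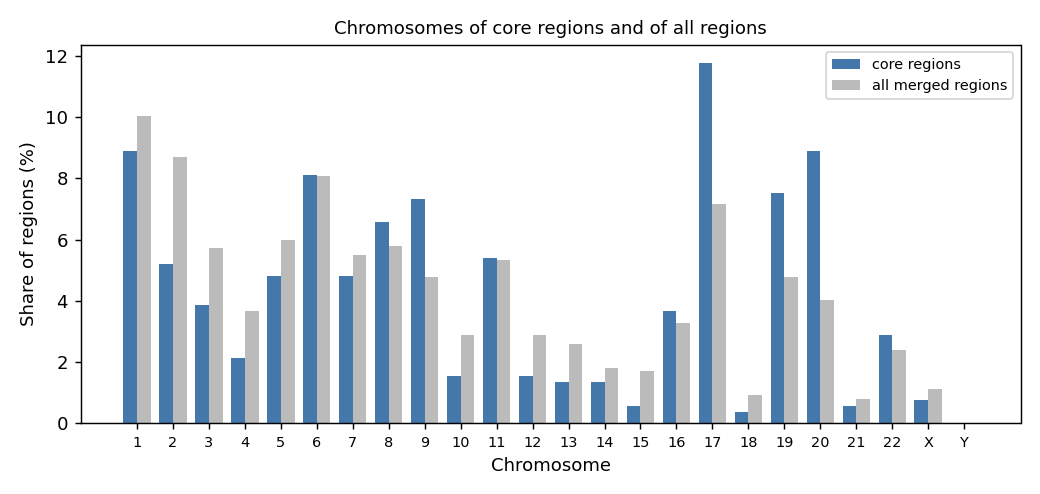
Share of the core regions (blue) and of all merged regions (grey) on each chromosome, in percent. Chromosomes 17 (11.8% against 7.15%) and 20 (8.88% against 4.04%) hold more of the core than of all regions, and chromosome 2 less (5.21% against 8.69%).

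The nearest other core region was a median of 335 kb away. Another lay within 10 kb of 40 regions and within 50 kb of 122 (23.6%), or of 390 of 1196 without DOC1 2. Of regions in 5 libraries, 233 of 884 (26.4%) had another of their own kind within 50 kb. The nearest region of any kind was 4.38 kb from a core region, 6.06 kb from a region in 5 libraries and 14.5 kb from a region in 1 library (medians). Joined at 50 kb, the core regions gave 29 pairs, 14 chains of 3, 3 chains of 4 and 2 chains of 5.

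Both chains of 5 lie on chromosome 9, at chr9:36102333-36191704 (RECK, GLIPR2 and CLTA) and chr9:35656991-35732999 (RMRP, TPM2 and TLN1). RMRP is the RNA of RNase MRP, TLN1 encodes talin, which ties integrins to actin, and CLTA a clathrin light chain. The longest chain of 4, chr19:47299383-47360359, lies around AP2S1, a subunit of the clathrin adaptor AP-2. At this chain the summit reads were low, with 14 to 54 in any library, and its background was 0.669 times the core median.

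The chains of 5 belong to a segment, chr9:34325271-36573284, that holds 26 core regions among 136 regions (19.1%). Its bounds were set after the data were seen, from core regions whose background was at least 5 times the core median. Of 29 such regions in the whole core, 25 lie on chromosome 9 and 3 on chromosome 13. The latter count as outside the segment in the values below. Local background in the segment was a median of 10.3 times that of the core. The median summit held 206.5, 115.5 and 100.5 reads in lacZ 1 to 3 and 94, 81.5 and 223 in DOC1 1 to 3. Outside the segment it held 66, 38 and 34 in lacZ and 21, 20 and 56 in DOC1. The percentile of fold was low in the segment, with medians of 3.54, 1.69 and 4.89 in lacZ and 17.3, 2.23 and 12.2 in DOC1. At RMRP, chr9:35656991-35658255 held 351, 214 and 193 reads in lacZ and 139, 157 and 346 in DOC1. Its background, after scaling, was 26.7 to 50.0 reads, and its fold was 3.71 to 5.05. Without the segment the core held 492 regions, of which 101 had another within 50 kb, against 21 of the 26 inside it.

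Of 61 listed loci with a checked position, 45 had a region of any kind within 10 kb, and 1, CDKN1A, had a core region. Of the 100 regions within 10 kb of these loci 1 was core (1%), against 2.75% of all regions, a difference that was not tested. CDKN1A encodes p21, an inhibitor of cyclin-dependent kinases. The region lies in its body at chr6:36647836-36648815, with folds of 5.24, 8.17 and 8.54 in lacZ and 9.32, 4.78 and 4.76 in DOC1. Its summits held 53, 35 and 41 reads in lacZ and 28, 21 and 49 in DOC1, and the groups overlapped by both ranks. None of the 5 EMT factors (SNAI1, SNAI2, TWIST1, ZEB1 and ZEB2) had a core region within 10 kb, and each had a region of some kind. The same held for 7 AP-1 genes, of which each had a region of some kind. Of 17 epithelial and basement membrane genes 11 had such a region, of 6 mesenchymal genes 5 and of 13 NuRD genes 7, and none had a core region. Within 50 kb, 10 of the 61 loci had a core region, and within 100 kb 12. Without lacZ 2, 2 of the 61 had a core region within 10 kb.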

How the data were processed

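CHD4 peaks of 3 lacZ and 3 DOC1 libraries were used, grouped by sample title. Per the submitters' processing notes, Trimmomatic 0.33, BWA 0.7.12-r1039, SAMtools 1.2 and MACS2 2.1.1.20160309 were used on hg19 (GRCh37). Neither the control nor the settings of MACS2 are stated in the labels. The deposited fold is a ratio per peak, the deposited −log10 p-value and q-value give its significance, and the deposited score is a rounded form of the latter. Each list comes from 1 library, not from a pool, and ranks and percentiles were taken only within that list. Folds, summit reads and backgrounds of different lists are printed side by side but are not on 1 scale.

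Peaks overlapping by 1 bp were merged, and the peak of highest fold stood for a library with more than 1. Whole numbers of summit reads and the local background were solved from fold and p-value with 1 factor per library, as MACS2 is known to compute them. The factor, which multiplies the summit reads, was 0.476, 0.671 and 0.809 in lacZ 1 to 3 and 1, 1 and 0.562 in DOC1 1 to 3. The solution matched the deposited −log10 p-value within 0.002 for 100% of the peaks of each list. The solver and the merging were tested on simulated data. Library totals were not used. Groups were compared by 1 value from each library, with exact permutation tests (two-sided) over 20 assignments. The tools were pandas 2.3.3, numpy 2.4.6, statsmodels 0.14.6 and matplotlib 3.10.9 in Python 3.11.15.

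The members, lists and tests were chosen with earlier results of these data known. Named regions are the 12 with the best lowest percentile, the 6 with the largest rank difference in each direction among regions whose groups do not overlap, the 5 tightest and 3 widest by summits, the 5 longest, the chains with most core regions and those near a listed locus. A region that this rule names is not reported here. Others are said to be picked after their values were seen. Ranking by summit reads, the chromosome 9 segment and its background ratio were added after seeing the data.

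No annotation of hg19 was used. Positions of 275 loci were written by hand from memory, 64 of them from lists and the rest after the core regions had been seen. All 31 tRNA genes among them were withdrawn, since 7 had failed the check and the names or positions of the other 24 were set with the table of the other build in view. Of the remaining 244, 236 passed the check (61 of 64 listed and 175 of 180 others): the same chromosome in RefSeq's GRCh38.p14 table, and either a gene length within 2 kb or an offset of 1 end shared with a neighbour within 2 kb. This check is looser than planned and did not test the strand. FOSL2, EGFR and MBD2 were the listed loci left out.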

Additional observations from a re-analysis of the deposited data

How the results depend on the processing

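The core held 335 regions in lists of equal length and 226 as lacZ 1 peaks with 50% reciprocal overlap. With 1 library left out it held 517 to 1196 regions, the latter without DOC1 2, and that library alone moved it by over 1.5 times. Summits within 100 bp numbered 30 at the halved and 320 at the doubled distance, and 160 to 399 with 1 library left out, and core regions with another within 50 kb 122 to 390, in both cases highest without DOC1 2. Regions higher in every lacZ library numbered 115 to 280 with 1 library left out, with 145 without lacZ 2 and 280 without DOC1 2, and those higher in every DOC1 library 111 to 276. Fewer libraries have to agree in these settings. Listed loci within 10 kb of the core were 2 after merging within 500 bp, 4 at the doubled distance (CDKN1A with CLDN4, OVOL1 and GRHL2) and 1 to 2 with 1 library left out, 2 without lacZ 2. With lists cut to equal length the percentile difference was -8.29 points, and ranked by −log10 p-value it was -0.631 points. It was -11.6 to 2.05 points with 1 library left out and turned without DOC1 2. The width difference was -113 to 53.2 bp and turned without lacZ 1 (53.2 bp), DOC1 1 (4.17 bp) and DOC1 2 (31.3 bp). The summit distance difference kept its sign, at 4.83 to 13.2 bp. Apart from the construction named above, the cause was not tested.

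Libraries with the same number did not pair: their deviations in fold rank correlated at 0.00917, 0.0312 and 0.0788. With the replicate block the differences stayed at -3.86 points (exact sign-flip p = 0.75), -17.3 bp (p = 1) and 9.17 bp (p = 0.5), where 0.25 is the smallest p possible. The stricter q-value, merging, the other choices of peak and rank and, added after seeing the data, leaving out the chromosome 9 segment moved no other count by over 1.5 times.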
